A study of Mus musculus with 18 samples.

Results

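The class I histone deacetylases of the mouse are encoded by 4 genes, Hdac1, Hdac2, Hdac3 and Hdac8, which were taken from the deposited count files by symbol and make up 4 of the 53672 genes listed in each library. All 4 had enough counts to be among the 18791 genes tested. RNA had been sequenced from E14TG2a mouse embryonic stem cells (ESCs), a line derived from the inner cell mass of the early embryo and grown here with leukaemia inhibitory factor. Every library came from cells with floxed Hdac1 and Hdac2 alleles (Hdac1/2 lox/lox) that also carried a rescue transgene integrated with the piggyBac transposase, encoding wild-type HDAC1 (the HDAC1-WT line), HDAC1 with the substitution Y48E or HDAC1 with the substitution E63R. Each of the 3 lines was sequenced without treatment and on day 5 of a treatment with 1 µM 4-hydroxytamoxifen (OHT), the drug that switches on deletion of both floxed genes, with 3 libraries in each of the 6 groups. The labels give the treatment as lasting those 5 days, whereas the study's methods describe 1 day with the drug followed by 4 further days of culture. Whether a line was a clone or a pool, the promoter of the transgene, the species of its coding sequence and the exons that are floxed are not given in the sources used here. The study describes the 3 replicates of a group as biological, but not whether they were separate transfections, so p-values measure the spread between replicates of 1 line.

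Class I deacetylases remove acetyl groups from lysines with a zinc ion in the active site and are found mostly in the nucleus. HDAC1 and HDAC2 are close relatives that are built into the same large complexes, among them SIN3, NuRD, CoREST and MiDAC, and ESCs die when both are lost. HDAC3 works in the NCoR corepressor complex, and HDAC8, which acts without a large complex, deacetylates the cohesin subunit SMC3. HDAC1 to HDAC3 need a scaffold protein for full activity and are further activated by inositol phosphates, and the substitutions at residues 48 and 63 lie on the surface of HDAC1 where scaffold proteins contact it.

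The stretch below, from exons 2 and 3 of Hdac1 (chromosome 4, 129516104 to 129542713 in mm10, minus strand), holds both mutated positions and is shown because it also shows which other loci carry the same letters. Capitals mark codon 48 (TAC) and codon 63 (GAG) of Hdac1 and the codons at the matching places, which are codon 49 (TAC) and codon 64 (GAA) in Hdac2.
Hdac1, codons 40 to 71: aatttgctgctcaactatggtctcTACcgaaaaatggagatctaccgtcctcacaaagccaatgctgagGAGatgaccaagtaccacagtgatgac
Hdac2, matching stretch: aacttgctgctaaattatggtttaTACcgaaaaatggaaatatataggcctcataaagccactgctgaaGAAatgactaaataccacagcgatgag
Gm10093, matching stretch: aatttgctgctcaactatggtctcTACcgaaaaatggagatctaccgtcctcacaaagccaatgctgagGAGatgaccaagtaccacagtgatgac
The Hdac1 stretch lies at chr4:129528994-129534658 with an intron inside and the Hdac2 stretch at chr10:36985195-36986357 with an intron inside. The Gm10093 stretch lies at chr17:78491699-78491794. All positions are in mm10, and the letters were read from the transcript sequences of GENCODE M21. Hdac1 and Hdac2 differed at 18 of the 96 bases, of which 1 fell in the codon at residue 63 and 0 in the codon at residue 48. Gm10093, a processed pseudogene (an intronless copy of a spliced transcript), differed from Hdac1 at 0 of the 96 bases. Deposited counts per gene carry no base calls, so transgene and endogenous transcripts could not be separated at these codons.

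Counts on genes summed to between 9019615 and 11454638 per library (median 10126658.5), at which a gene with a count of 0 could lie as high as 0.262 to 0.333 CPM (3 counts). Such limits and all counting intervals here cover counting error only, as PCR copies of a molecule were not told apart. CPM is the count per 1e+06 counts on genes after TMM scaling, which sets the libraries to a common level. One library stood apart: replicate 3 of the untreated HDAC1-E63R line had a TMM factor of 0.814, against 0.955 to 1.11 in the other libraries, and differed from its 2 replicates by a chi-square per degree of freedom of 55.1 and 61.1, against 3.36 to 7.07 for the other 16 replicate pairs. Its summed level of 8 ESC marker genes (Pou5f1, Sox2, Nanog and others) was 7445 CPM, beside 4883 and 4480 CPM in replicates 1 and 2. Because all libraries share 1 estimate of spread, this library also widened the errors of comparisons that do not use its group. Each test was therefore repeated on the other 17 libraries, and those values are given beside the values from all 18 where they change a call. That repeat was added after the data were seen.

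The 8 ESC markers were detected in all 6 groups, with summed levels of 6486 to 7002 CPM in the HDAC1-WT line with or without OHT. They were 4480 to 7445 CPM in the untreated and 3646 to 3955 CPM in the OHT-labelled HDAC1-E63R line, and 5326 to 5445 and 2275 to 2401 CPM in the HDAC1-Y48E line. With 17 libraries, at an edgeR adjusted p under 0.01, OHT in HDAC1-E63R gave Klf4 and Zfp42 higher and Dppa5a, Esrrb, Fgf4 and Pou5f1 lower. In HDAC1-Y48E 7 of the 8 were lower, and in HDAC1-WT Esrrb, Klf4 and Zfp42 were higher. The list medians were -0.19, -1.21 and 0.11 on the log2 scale, where 18.5%, 41.1% and 1.39% of all genes passed. The 5 trophoblast markers summed to 183.4 to 215.9 CPM in the HDAC1-WT line, 47.2 to 74.2 CPM in the untreated mutants, 137.9 to 141.0 CPM in OHT-labelled HDAC1-E63R and 74.7 to 85.2 CPM in OHT-labelled HDAC1-Y48E. Single markers went both ways against OHT-labelled HDAC1-WT with 17 libraries, at an edgeR adjusted p under 0.01. Cdx2 and Hand1 were higher and Tfap2c lower in OHT-labelled HDAC1-E63R. Gata3 and Hand1 were higher and Tfap2c lower in OHT-labelled HDAC1-Y48E. The median log2 fold changes of the list were 2.16 and 1.42, where 29.5% and 41.8% of all genes passed. The 4 primitive endoderm markers summed to 25.7 to 34.6 CPM in the HDAC1-WT line and 10.3 to 18.1 CPM in the mutant lines. By the same test, Sox17 was higher and Gata4 and Gata6 lower in OHT-labelled HDAC1-Y48E than in OHT-labelled HDAC1-WT. The summed level of the 5 fibroblast markers went with OHT from 23.4 to 25.2 up to 35.9 to 41.8 CPM in HDAC1-WT. It went from 12.9 to 18.7 up to 48.1 to 56.0 CPM in HDAC1-E63R and from 23.0 to 27.1 up to 80.7 to 94.0 CPM in HDAC1-Y48E. Lum was at 0 in 5 groups, and both Col3a1 and Cdx2 were at 0 in the OHT-labelled HDAC1-WT libraries. With 17 libraries, Thy1 (0.88) was the only fibroblast marker called with OHT in HDAC1-WT, where the list median was -0.47. Col1a1 (0.099), Col1a2 (-1.03) and Col3a1 (-3.15) were not called there, and Lum was not tested. Col1a1 and Thy1 were called higher in both mutant lines. Col3a1 was not called in either, at -1.27 in HDAC1-E63R and 1.14 in HDAC1-Y48E. The summed levels of all 4 marker lists therefore moved with the groups along with the class I genes described here. The part of the cell types they mark in the differences of those genes was not tested. In bulk RNA, fewer cells of a type cannot be told apart from less RNA per cell.

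In mm10, Hdac2 lies on chromosome 10 (36974544 to 37001889, plus strand). Hdac3 lies on chromosome 18 (37935844 to 37955016, minus strand) and Hdac8 on chromosome X (102284639 to 102505359, minus strand). No exon of the 4 genes overlapped an exon of another annotated gene on either strand. Their coding sequences hold 482 codons for Hdac1, 488 for Hdac2, 428 for Hdac3 and 377 for Hdac8. Over the aligned coding bases, Hdac1 was 75.9% identical to Hdac2, 68.1% to Hdac3 and 61.0% to Hdac8, so Hdac2 is its closest relative in the set.

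Levels of different genes were compared per kb of merged exons, which are 3445 bases for Hdac1, 4474 for Hdac2, 4054 for Hdac3 and 4839 for Hdac8. In untreated HDAC1-WT cells Hdac1 had the highest level of the 11 zinc-dependent deacetylase genes at 59.4 ± 1.44 CPM per kb (SD, n = 3), and Hdac2 was next at 43.5 ± 5.10 CPM per kb. Hdac3 stood at 11.2 ± 0.118 CPM per kb, behind Hdac6 (27.3 ± 2.33) and Hdac5 (15.3 ± 0.627), and Hdac8 ranked 10 of the 11 at 1.27 ± 0.442 CPM per kb. Of the sum of the 4 class I genes per kb, Hdac1 made up 51.5 ± 1.70% and Hdac2 37.7 ± 2.68%, with 9.70 ± 0.563% for Hdac3 and 1.12 ± 0.450% for Hdac8. The share of Hdac1 was lower in both untreated mutant lines, at 35.5 ± 3.00% in HDAC1-E63R and 37.5 ± 0.0847% in HDAC1-Y48E, where Hdac2 held 45.6 ± 1.44% and 43.3 ± 0.545% and had the highest level of the 11 genes per kb of merged exons. Division by the length of the longest transcript instead gave 100.4 CPM per kb for Hdac1, 59.9 for Hdac2, 12.6 for Hdac3 and 2.72 for Hdac8 in untreated HDAC1-WT. By that length the order of Hdac1 and Hdac2 turned in untreated HDAC1-Y48E, with 49.5 ± 1.43 for Hdac1 and 46.6 ± 0.741 CPM per kb for Hdac2, and in untreated HDAC1-E63R the values were 51.5 ± 4.33 and 54.4 ± 9.06 CPM per kb, so the order of these genes in the mutant lines depends on the length used.

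**Figure D1:**
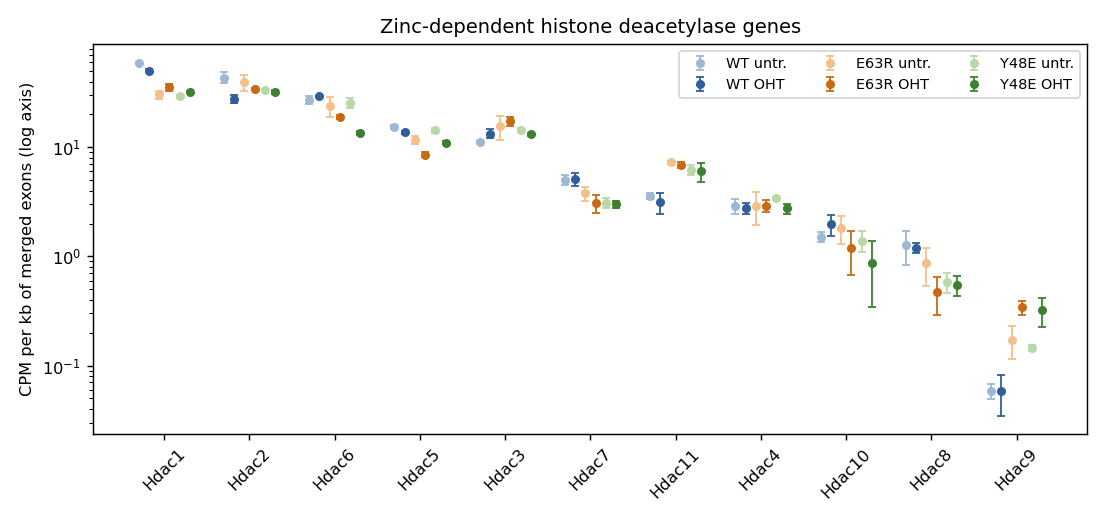
Mean level of the 11 zinc-dependent deacetylase genes in CPM per kb of merged exons on a log axis, by group, with SD over 3 libraries as error bars, sorted by level in untreated HDAC1-WT cells. Hdac1 (59.4 CPM per kb) and Hdac2 (43.5 CPM per kb) lie at the left end and Hdac8 (1.27 CPM per kb) near the right end.

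Hdac1, one of the 2 genes floxed in these cells and the gene whose protein the transgene supplies, had a higher level in every HDAC1-WT library than in any library of the mutant lines. The untreated HDAC1-WT libraries held 203.3, 200.5 and 210.2 CPM in replicates 1, 2 and 3. The untreated HDAC1-E63R libraries held 110.1, 94.8 and 110.1 CPM, and the untreated HDAC1-Y48E libraries 97.8, 103.5 and 101.5 CPM. The lowest wild-type library was thus well above the highest mutant library before any OHT. After OHT the values were 168.4, 173.1 and 178.5 CPM in the HDAC1-WT line. They were 112.3, 122.7 and 131.0 CPM in the HDAC1-E63R line and 109.9, 111.2 and 112.8 CPM in the HDAC1-Y48E line. The ranges of OHT-labelled and untreated libraries were separate in each line, lower after OHT in HDAC1-WT and higher after OHT in both mutants.

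The order of the group means was HDAC1-WT untreated, HDAC1-WT with OHT, HDAC1-E63R with OHT, HDAC1-Y48E with OHT, HDAC1-E63R untreated and HDAC1-Y48E untreated. The 2 HDAC1-WT groups were separate from each other and from the group below them, and each of the 4 mutant groups overlapped with the next. These totals do not check the deletion, because transcripts of the transgene, of the floxed gene and of an allele that has lost some exons could all count towards Hdac1.

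In untreated cells Hdac1 was lower than in HDAC1-WT by a log2 fold change of -0.96 in HDAC1-E63R (95% interval -1.15 to -0.77, edgeR adjusted p = 8.81e-08), a ratio of 0.513. The value was -1.02 in HDAC1-Y48E (-1.21 to -0.83, edgeR adjusted p = 5.60e-08), a ratio of 0.493. After OHT the same contrasts gave -0.51 for HDAC1-E63R (edgeR adjusted p = 1.99e-04) and -0.64 for HDAC1-Y48E (edgeR adjusted p = 6.67e-06). A gene is called here at an adjusted p under 0.01, with Benjamini-Hochberg adjustment over all genes tested. All 4 were called, and with 17 libraries the untreated HDAC1-E63R difference was -0.99 (edgeR adjusted p = 2.41e-13). The mutant lines did not pass the test against each other for Hdac1, with differences of -0.06 (95% interval -0.25 to 0.14) untreated and -0.13 (-0.32 to 0.06) after OHT, Y48E minus E63R. Both mutants were compared with the same HDAC1-WT libraries, so the contrasts are not independent. Each line is a separate transfection, so a difference between lines cannot be told apart from one between transfections.

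**Figure D2:**
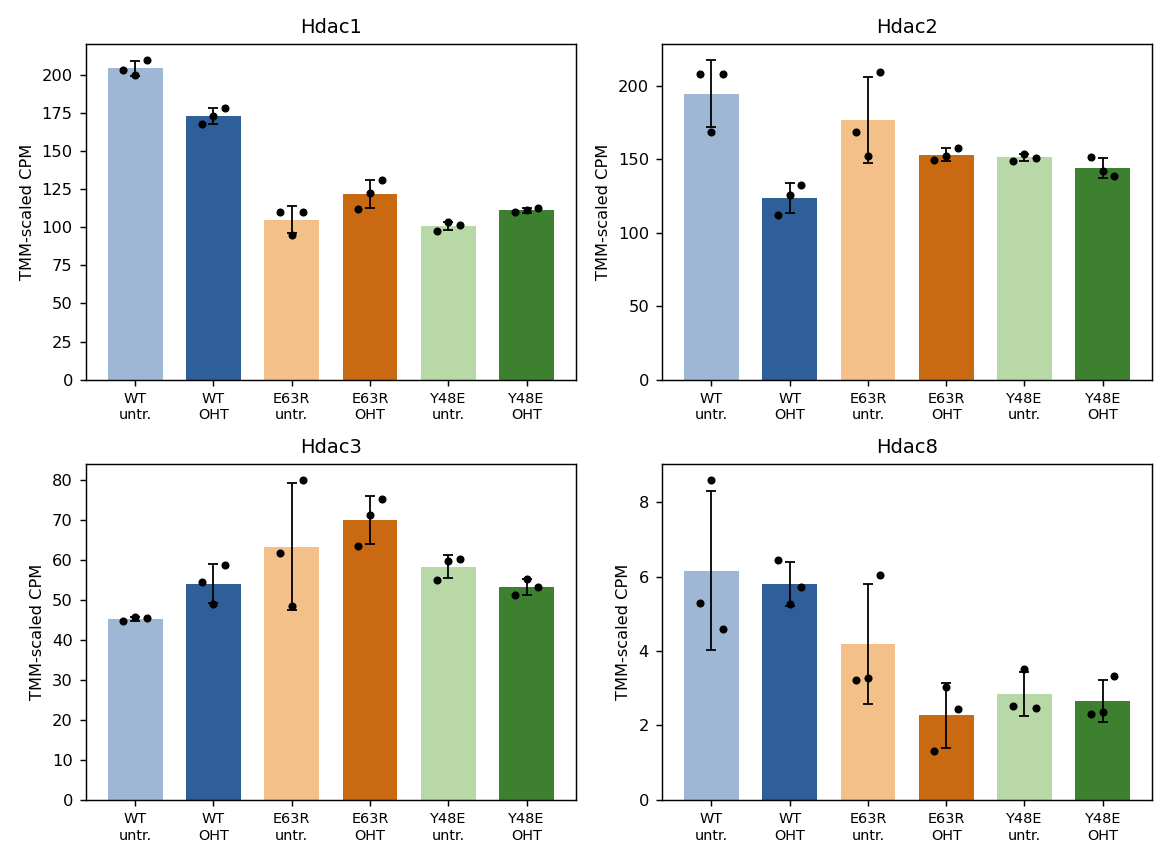
TMM-scaled CPM of the 4 class I genes in each of the 18 libraries (points, replicates 1 to 3 from left to right), with group means as bars and SD as error bars. Hdac1 is at 168.4 to 210.2 CPM in the HDAC1-WT line and at 94.8 to 131.0 CPM in the mutant lines, and Hdac8 is at 1.32 to 8.60 CPM over all libraries.

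OHT itself gave small differences of Hdac1 within each line. The log2 fold change was -0.24 in HDAC1-WT (standard error 0.09, edgeR adjusted p = 0.344), 0.22 in HDAC1-E63R (standard error 0.09, edgeR adjusted p = 0.0886) and 0.14 in HDAC1-Y48E (standard error 0.09, edgeR adjusted p = 0.221), and none was called. With library totals in place of TMM factors, the mutant values were 0.42 (edgeR adjusted p = 0.00195) and 0.35 (edgeR adjusted p = 0.00435), both called. Under that scaling the median gene stood at 0.21 and 0.23 in the same comparisons, 0.18 and 0.19 above its value with TMM factors. Relative to HDAC1-WT, the OHT effect was 0.46 higher in HDAC1-E63R (interaction, edgeR adjusted p = 0.0390) and 0.38 higher in HDAC1-Y48E (edgeR adjusted p = 0.0372), neither called at 0.01. With 17 libraries both were called, at 0.49 (edgeR adjusted p = 0.00136) and 0.38 (edgeR adjusted p = 0.00328), and the DESeq2 Wald test called both (adjusted p = 0.00334 and 0.00299).

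Part of Hdac1 cannot be assigned to it alone. Gm10093 (chromosome 17, 78491582 to 78493025) is 99.4% identical to the Hdac1 transcript over 1444 bases with 9 mismatches, and Gm4864 (chromosome 12, 77623549 to 77625009), also a processed pseudogene, is 94.3% identical over 1470 bases. AC125456.1 on chromosome 18 is 96.3% identical over 1450 bases and was not analysed here. Of the 1889 windows of 150 bases in the longest Hdac1 transcript, 705 (37.3%) occur letter for letter in a copy, whereas 0 windows of Hdac2, Hdac3 or Hdac8 do. How reads that match several places were counted is not given in the sources used here.

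Counts on Gm10093 were 41.7 ± 4.08% of those on Hdac1 in untreated HDAC1-WT libraries (SD, n = 3) and between 37.0 and 46.5% in the means of the other 5 groups. Its mean was 85.4 ± 9.86 CPM in untreated HDAC1-WT, 44.7 ± 8.71 CPM in untreated HDAC1-E63R and 40.1 ± 2.26 CPM in untreated HDAC1-Y48E. Gm10093 was thus lower in both mutant lines, as Hdac1 was, at -0.94 in the E63R line (edgeR adjusted p = 2.02e-05) and -1.09 in the Y48E line (edgeR adjusted p = 4.20e-06) on the log2 scale. Across the 18 libraries its log2 level had a Pearson r of 0.90 with Hdac1, given as a description of libraries that share lines and treatments and of loci that share letters. Its OHT effects were -0.42 in HDAC1-WT, 0.28 in HDAC1-E63R and 0.37 in HDAC1-Y48E, not called with 18 libraries, and the last 2 were called with 17 (0.44, edgeR adjusted p = 0.00411, and 0.37, edgeR adjusted p = 0.00389). With Gm10093 counted into Hdac1, the difference of OHT effects between HDAC1-Y48E and HDAC1-WT was 0.50 and was called (edgeR adjusted p = 0.00733).

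Gm4864, the more diverged copy, moved with OHT where Hdac1 did not pass the test. Its untreated and OHT-labelled means were 23.1 ± 0.305 and 23.3 ± 1.11 CPM in HDAC1-WT. They were 9.94 ± 0.824 and 20.3 ± 1.93 CPM in HDAC1-E63R, higher by 1.03 on the log2 scale (edgeR adjusted p = 8.52e-05). In HDAC1-Y48E they were 10.4 ± 1.51 and 16.7 ± 2.24 CPM, higher by 0.69 (edgeR adjusted p = 0.00173). The rise was thus in both mutant lines and the HDAC1-WT value was 0.01 (edgeR adjusted p = 1), and the untreated mutants differed from untreated HDAC1-WT by -1.22 and -1.16. Gm4864 amounted to 9.47 ± 0.220% of the Hdac1 count in untreated and 16.6 ± 0.556% in OHT-labelled HDAC1-E63R libraries.

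**Figure D3:**
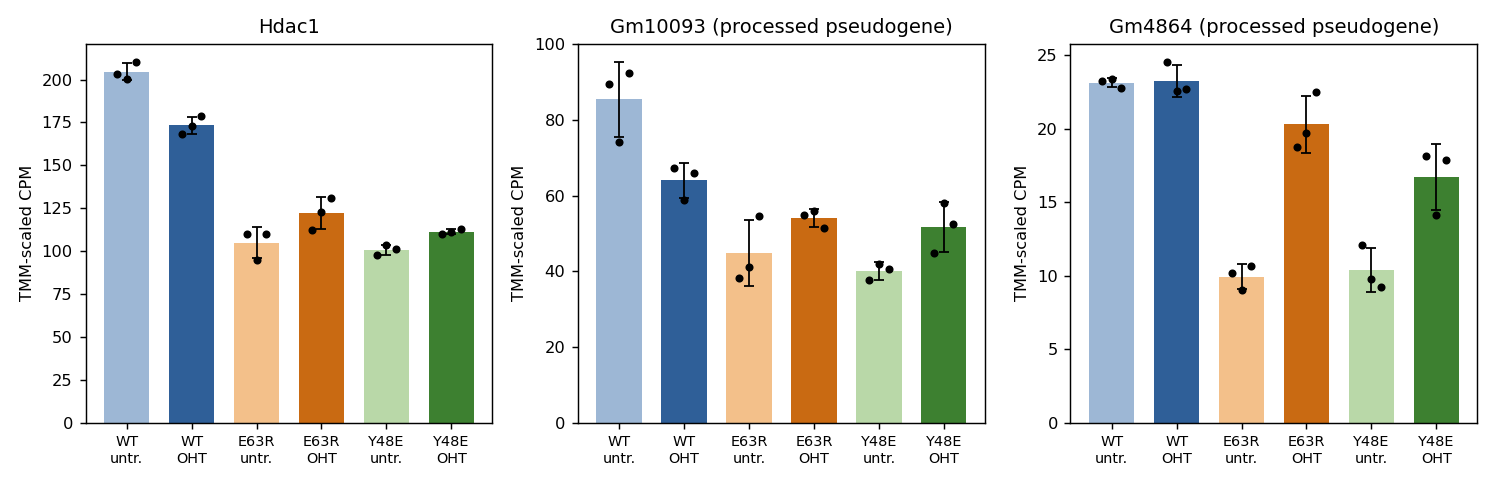
TMM-scaled CPM of Hdac1 and of 2 processed pseudogenes that resemble it, by library (points), with group means as bars and SD as error bars. Gm10093 follows the pattern of Hdac1 between lines, and Gm4864 goes from 9.94 to 20.3 CPM with OHT in HDAC1-E63R and from 10.4 to 16.7 CPM in HDAC1-Y48E.

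Hdac2, the other floxed gene, for which no transgene was supplied, had its lowest levels in the OHT-labelled HDAC1-WT libraries, and its levels in the mutant lines overlapped with and without OHT. The untreated HDAC1-WT libraries held 207.8, 168.4 and 208.2 CPM, and the OHT-labelled ones 112.2, 125.6 and 132.5 CPM. The highest OHT-labelled library was below the lowest untreated one. In HDAC1-E63R the untreated libraries held 168.8, 152.3 and 209.5 CPM and the OHT-labelled ones 149.4, 152.1 and 158.0 CPM. In HDAC1-Y48E they held 149.0, 153.8 and 151.1 CPM and 151.5, 141.7 and 138.9 CPM. The ranges overlapped in both mutant lines, and the 209.5 CPM came from the library that stood apart.

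The log2 fold change of Hdac2 with OHT in HDAC1-WT was -0.66 (95% interval -0.89 to -0.42, edgeR adjusted p = 0.0125), a ratio of 0.634, just outside the limit of 0.01. It was called with 17 libraries (-0.66, edgeR adjusted p = 1.45e-07), by the DESeq2 Wald test (adjusted p = 4.24e-05) and by edgeR without replicate 2 of the untreated group, which held 168.4 CPM (-0.75, adjusted p = 0.00858). The size of the difference was the same with 17 libraries, and the call changed with the libraries and the tool. In the mutants it was -0.21 in HDAC1-E63R (95% interval -0.44 to 0.03, edgeR adjusted p = 0.194) and -0.07 in HDAC1-Y48E (-0.30 to 0.17, edgeR adjusted p = 0.649). With 17 libraries the HDAC1-E63R value was -0.07 (edgeR adjusted p = 0.597), and with library totals in place of TMM factors the mutant values turned sign, to 0.011 and 0.14. Against HDAC1-WT, the OHT effect was 0.45 higher in HDAC1-E63R (edgeR adjusted p = 0.102) and 0.59 higher in HDAC1-Y48E (edgeR adjusted p = 0.0105). With 17 libraries both were called, at 0.59 (edgeR adjusted p = 2.68e-04) and 0.58 (edgeR adjusted p = 3.11e-05). The lowest total among the OHT-labelled libraries was 112.2 CPM, and since a transcript that has lost floxed exons could still count, it does not check the deletion.

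Between lines, untreated Hdac2 had a log2 fold change of -0.36 in HDAC1-Y48E against HDAC1-WT, with separate ranges (edgeR adjusted p = 0.0241), and -0.14 in HDAC1-E63R (edgeR adjusted p = 0.386). After OHT the direction was the opposite, 0.31 in HDAC1-E63R (edgeR adjusted p = 0.0422) and 0.22 in HDAC1-Y48E (edgeR adjusted p = 0.116). None of these 4 differences was called with 18 libraries. With 17, the untreated HDAC1-Y48E value of -0.36 (edgeR adjusted p = 2.02e-04) and the HDAC1-E63R value after OHT of 0.31 (edgeR adjusted p = 9.01e-04) were called. Of the 6 group means, that of the OHT-labelled HDAC1-WT libraries was the lowest (123.4 ± 10.3 CPM) and stood apart from the next, and the other 5, from 144.0 to 194.8 CPM, overlapped each with its neighbour.

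The balance of Hdac1 and Hdac2 counts can be read within a library, where the scaling of libraries does not enter. Transcripts of the transgene could count towards Hdac1, so this is not a balance of the 2 floxed genes alone. Hdac2 made up 50.6, 45.7 and 49.8% of the Hdac1 plus Hdac2 counts in untreated HDAC1-WT and 40.0, 42.0 and 42.6% after OHT. In HDAC1-E63R it made up 60.5, 61.6 and 65.6% untreated and 57.1, 55.4 and 54.7% after OHT. In HDAC1-Y48E it made up 60.4, 59.8 and 59.8% untreated and 58.0, 56.0 and 55.2% after OHT. Hdac2 thus had fewer counts than Hdac1 in the HDAC1-WT means and more counts than Hdac1 in every mutant library. These counts were not divided by length. Per kb of merged exons, Hdac1 and Hdac2 stood at 35.4 and 34.2 CPM in OHT-labelled HDAC1-E63R and at 32.3 and 32.2 CPM in OHT-labelled HDAC1-Y48E. With Gm10093 counted into Hdac1, Hdac2 had fewer counts in every OHT-labelled mutant library and still more in every untreated mutant library. The share was lower after OHT in each line with no overlap of libraries, with changes of -7.11 percentage points in HDAC1-WT, -6.87 in the E63R line and -3.60 in the Y48E line. Each gave p = 0.1 in the exact permutation test (two-sided), the smallest that 3 libraries against 3 allow. Without the library that stood apart the HDAC1-E63R difference was -5.38 percentage points. Single libraries had 95% Clopper-Pearson intervals such as 49.1 to 52.0% for replicate 1 of untreated HDAC1-WT (2237 of 4425 counts), which cover counting error only.

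**Figure D4:**
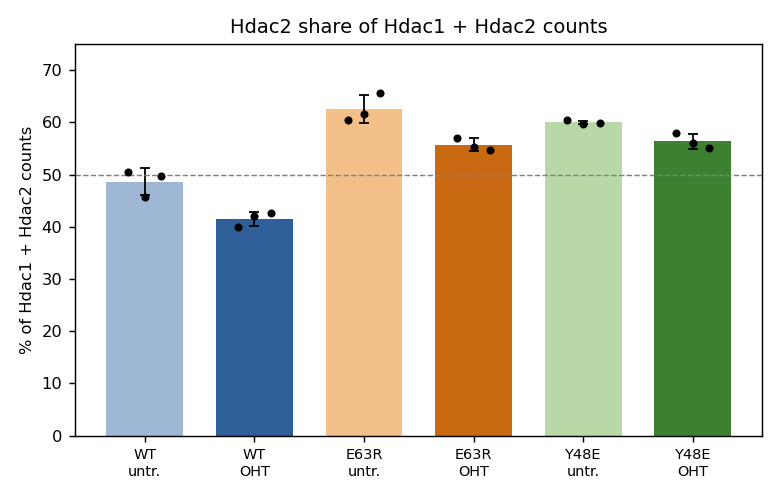
Hdac2 as a percentage of the Hdac1 plus Hdac2 counts in each library (points), with group means as bars, SD as error bars and a dashed line at 50%. The mutant libraries lie between 54.7 and 65.6% and the HDAC1-WT libraries between 40.0 and 50.6%.

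Hdac3, the catalytic subunit of the NCoR complex, had its lowest and most even levels in untreated HDAC1-WT, at 44.8, 45.7 and 45.5 CPM. After OHT that line held 54.5, 49.0 and 58.8 CPM. Every one of these was higher than the untreated libraries, with a log2 fold change of 0.26 (95% interval -0.03 to 0.54, edgeR adjusted p = 0.574). HDAC1-E63R held 61.7, 48.4 and 80.0 CPM untreated and 63.5, 71.3 and 75.3 CPM after OHT. HDAC1-Y48E held 55.0, 59.7 and 60.2 CPM untreated and 51.4, 55.4 and 53.2 CPM after OHT. Every mutant library was above the 3 untreated HDAC1-WT libraries, and the untreated HDAC1-E63R libraries spread the most, with the highest value in the library that stood apart.

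Fitted with edgeR and TMM factors on 18 libraries, Hdac3 was called in no comparison. The untreated log2 fold change against HDAC1-WT was 0.48 in HDAC1-E63R (edgeR adjusted p = 0.0118) and 0.36 in HDAC1-Y48E (edgeR adjusted p = 0.0670). The former was 0.29 with 17 libraries (edgeR adjusted p = 0.0537), 0.64 without replicate 2 of the same group (edgeR adjusted p = 5.40e-04) and 0.50 and called by DESeq2 on 18 libraries (adjusted p = 0.0048), so its call depended on single libraries and on the tool. The latter was called with 17 libraries (0.37, edgeR adjusted p = 0.00524). OHT gave 0.14 in HDAC1-E63R and -0.13 in HDAC1-Y48E, the latter 0.078 with library totals. The HDAC1-E63R value was 0.34 with 17 libraries (edgeR adjusted p = 0.0215) and -0.014 without replicate 2 of its untreated group. After OHT, Hdac3 was 0.37 above HDAC1-WT in HDAC1-E63R (edgeR adjusted p = 0.0452) and -0.02 in HDAC1-Y48E, and its HDAC1-Y48E libraries lay below all HDAC1-E63R libraries (-0.39, edgeR adjusted p = 0.0504). With 17 libraries the HDAC1-E63R difference from HDAC1-WT (0.37, edgeR adjusted p = 0.00264) and the difference between the mutants (-0.39, edgeR adjusted p = 0.00222) were called. Hdac3 was the only class I gene called between the mutant lines in that fit.

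Hdac8, the cohesin deacetylase, rested on 16 to 95 counts per library, so its values carry a large counting error. The untreated HDAC1-WT libraries held 5.30, 8.60 and 4.60 CPM and the OHT-labelled ones 6.44, 5.25 and 5.73 CPM. HDAC1-E63R held 3.23, 3.27 and 6.06 CPM untreated and 1.32, 3.04 and 2.44 CPM after OHT. HDAC1-Y48E held 2.53, 3.53 and 2.47 CPM untreated and 2.30, 2.35 and 3.32 CPM after OHT. The HDAC1-WT libraries were all above those of HDAC1-Y48E and of OHT-labelled HDAC1-E63R, and the only mutant library within their range was the one that stood apart.

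After OHT, Hdac8 was lower in HDAC1-E63R than in HDAC1-WT by a log2 fold change of -1.36 (95% interval -2.15 to -0.57, edgeR adjusted p = 0.00883). This was called, but leaving out replicate 1, 2 or 3 of OHT-labelled HDAC1-WT ended the call (edgeR adjusted p = 0.0332, 0.0172 and 0.0216), as did leaving out replicate 1 or 3 of OHT-labelled HDAC1-E63R (edgeR adjusted p = 0.0617 and 0.0255). With 17 libraries it was called (-1.36, edgeR adjusted p = 0.00321). The same contrast was -1.12 in HDAC1-Y48E (edgeR adjusted p = 0.0185), and untreated HDAC1-Y48E had -1.12 as well (edgeR adjusted p = 0.0377). Untreated HDAC1-E63R had -0.56 (edgeR adjusted p = 0.271), or -0.92 with 17 libraries (edgeR adjusted p = 0.096). The OHT effects were -0.09 in HDAC1-WT, -0.88 in HDAC1-E63R (edgeR adjusted p = 0.0986) and -0.09 in HDAC1-Y48E. Their 95% intervals reached from -1.68 to -0.08 in HDAC1-E63R and spanned 0 in the other lines. With 17 libraries the HDAC1-E63R value was -0.53 (edgeR adjusted p = 0.399), and the untreated library then left out held 6.06 CPM.

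**Figure D5:**
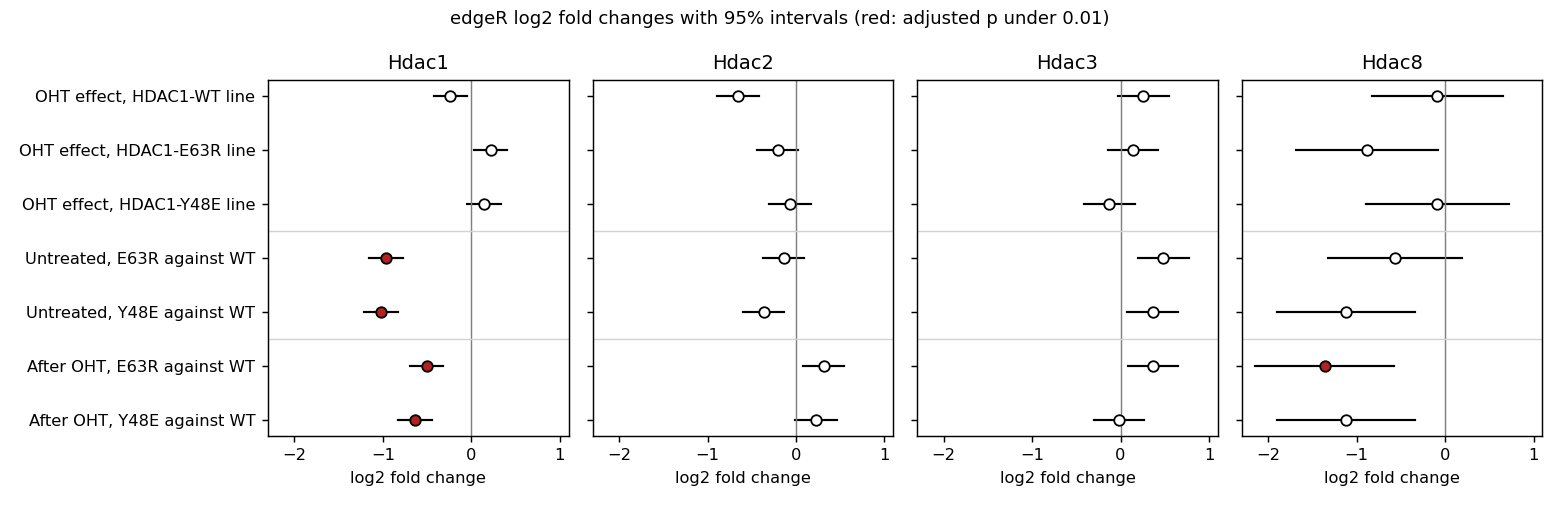
Log2 fold changes of the 4 genes with 95% intervals for OHT within each line and for each mutant line against HDAC1-WT, from edgeR, with red points where the adjusted p was under 0.01. The red points are Hdac1 in all 4 contrasts with HDAC1-WT, from -0.51 to -1.02, and Hdac8 in OHT-labelled HDAC1-E63R at -1.36.

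Counted over the 4 genes, 0 passed 0.01 with OHT in HDAC1-WT, where 0.0585% of all genes tested were called, 0 in HDAC1-E63R (14.3% of all genes) and 0 in HDAC1-Y48E (30.9%). At an unadjusted p under 0.05, 2 passed in HDAC1-WT (Hdac1 and Hdac2), 2 in HDAC1-E63R (Hdac1 and Hdac8) and 0 in HDAC1-Y48E, and DESeq2 called 1 (Hdac2 in HDAC1-WT), 0 and 0. With 17 libraries 1 (Hdac2), 0 and 0 members were called, beside 1.39, 18.5 and 41.1% of the 19503 genes then tested. Against untreated HDAC1-WT, 1 of 4 was called in each mutant, Hdac1, beside 16.9% of all genes in HDAC1-E63R (7.83% called lower) and 12.2% in HDAC1-Y48E (5.74% called lower). With 17 libraries these were 1 of 4 (20.5% of all genes) and 3 of 4 (21.4%). After OHT, 2 of 4 were called in HDAC1-E63R (19.3% of all genes) and 1 of 4 in HDAC1-Y48E (31.8%), all of them lower, which 8.79% and 15.2% of all genes were. With 17 libraries these were 4 of 4 (29.5% of all genes) and 1 of 4 (41.8%), with Hdac2 and Hdac3 higher and Hdac1 and Hdac8 lower in HDAC1-E63R. In the comparison of the 2 mutant lines 0 of 4 were called by edgeR or DESeq2, beside 1.85% of all genes untreated and 10.4% after OHT, with 0 and 1 (Hdac3) at an unadjusted p under 0.05. With 17 libraries 0 and 1 (Hdac3) were called, beside 4.67% and 19.9%. For the differences of OHT effects the members called were 0 of 4 in all 3 pairs of lines by edgeR, beside 2.45% of all genes for HDAC1-E63R minus HDAC1-WT, 12.6% for HDAC1-Y48E minus HDAC1-WT and 1.95% for HDAC1-Y48E minus HDAC1-E63R. At an unadjusted p under 0.05 these held 2, 2 and 0 members, and DESeq2 called 1 (Hdac1), 2 (Hdac1 and Hdac2) and 0. With 17 libraries Hdac1 and Hdac2 were called against HDAC1-WT in both mutant lines, beside 6.53% and 23.1% of all genes.

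The proteins that HDAC1 and HDAC2 bind directly were followed at the RNA level in a list of 15 scaffold genes. With OHT, 0 were called in HDAC1-WT (1 at an unadjusted p under 0.05 by edgeR, 0 by DESeq2), 1 was lower in HDAC1-E63R (Mta3) and 4 were lower in HDAC1-Y48E (Elmsan1, Mta2, Mta3 and Rcor2), with none higher in either; over all genes 0.0213%, 6.82% and 14.7% were called lower. With 17 libraries 0, 7 and 6 were lower, and Sin3b was higher in HDAC1-Y48E, beside 1.39, 18.5 and 41.1% of all genes called in either direction. The list median was -0.31 in HDAC1-Y48E beside 0.05 over all genes tested, and -0.22 beside 0.03 in HDAC1-E63R. Elmsan1, which encodes the MiDAC scaffold MIDEAS, went from 139.2 ± 3.45 to 67.2 ± 2.60 CPM in HDAC1-Y48E (log2 fold change -1.05, edgeR adjusted p = 1.34e-06). Mta2, a NuRD scaffold, had -0.82 and Rcor2, a CoREST scaffold, -0.59 in the same line. Against HDAC1-WT after OHT, Sin3b, a SIN3 scaffold, was the 1 scaffold called higher in both mutants, by 0.87 in HDAC1-E63R and 1.02 in HDAC1-Y48E, while 5 were lower in each, beside 10.5% and 16.6% of all genes called higher and 8.79% and 15.2% called lower. Sin3b was also called higher in both mutants without OHT, by 1.00 in HDAC1-E63R (0.73 with 17 libraries) and 0.67 in HDAC1-Y48E. With 17 libraries 2 and 1 scaffolds were higher and 8 and 8 were lower after OHT, where 29.5% and 41.8% of all genes were called in either direction.

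Among 5 genes of the HDAC3 corepressor complex, OHT gave 0 calls in HDAC1-WT (1 at an unadjusted p under 0.05 by edgeR, 0 by DESeq2) and 1 lower gene in each mutant line, Tbl1xr1, which encodes a WD40-repeat subunit. Tbl1xr1 went from 78.5 ± 7.09 to 28.5 ± 2.92 CPM in HDAC1-Y48E (log2 fold change -1.46, edgeR adjusted p = 3.70e-09) and had -0.82 in HDAC1-E63R (edgeR adjusted p = 3.51e-05). Ncor1, the scaffold that binds HDAC3, was lower than in OHT-labelled HDAC1-WT with values of -0.82 in HDAC1-E63R and -1.02 in HDAC1-Y48E. With 17 libraries Ncor1, Tbl1x and Tbl1xr1 were lower with OHT in each mutant line, and 0 genes of the list were called in HDAC1-WT. In that fit 18.5% of all genes were called in HDAC1-E63R, 41.1% in HDAC1-Y48E and 1.39% in HDAC1-WT. Hdac3 itself was called with OHT in no line. The list median with OHT was -0.45 in HDAC1-Y48E beside 0.05 for all genes.

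Of 8 genes of cohesin and its acetylation cycle, on which HDAC8 acts, 0 were called with OHT in HDAC1-WT (2 at an unadjusted p under 0.05 by edgeR, and Esco2 by DESeq2). Esco2, an acetyltransferase that acetylates SMC3, and Stag2, a cohesin subunit, were lower with OHT than without in both mutant lines. Esco2 went from 265.2 ± 8.65 to 121.9 ± 8.12 CPM in HDAC1-Y48E (log2 fold change -1.12, edgeR adjusted p = 1.81e-09) and had -0.62 in HDAC1-E63R. Untreated, Esco2 was higher than in HDAC1-WT, by 0.74 in HDAC1-E63R (edgeR adjusted p = 2.22e-06) and 0.85 in HDAC1-Y48E (edgeR adjusted p = 3.83e-07). After OHT it was still 0.51 higher in HDAC1-E63R (edgeR adjusted p = 1.41e-04), and the HDAC1-Y48E value was 0.12 (edgeR adjusted p = 0.276). Esco1, the other acetyltransferase, was higher in HDAC1-Y48E by 0.53 (edgeR adjusted p = 0.00451), where 16.2% of all genes were called higher. With 17 libraries Esco2 and Stag2 were lower in HDAC1-WT as well, at -0.39 and -0.34, and Nipbl, the cohesin loader gene, joined them in both mutant lines. Of all genes, 1.39% were then called in either direction in HDAC1-WT, 18.5% in HDAC1-E63R and 41.1% in HDAC1-Y48E. Hdac8 was called in none of the OHT comparisons.

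Of 3 inositol phosphate kinase genes, which make the small molecules that activate HDAC1 to HDAC3 complexes, 1 was lower with OHT in HDAC1-Y48E, Itpk1 (log2 fold change -0.55, edgeR adjusted p = 4.83e-04). In HDAC1-WT and HDAC1-E63R 0 were called (1 and 0 at an unadjusted p under 0.05 by edgeR, 0 and 0 by DESeq2). Of the other 7 zinc-dependent deacetylase genes, 0 were called in HDAC1-WT by edgeR or DESeq2 (0 at an unadjusted p under 0.05), 1 was lower in HDAC1-E63R (Hdac5) and 2 were lower in HDAC1-Y48E (Hdac5, and Hdac6 at -0.91). With 17 libraries Ippk was also higher in HDAC1-Y48E and Hdac6 also lower in HDAC1-E63R. These lists were read beside the share of all genes called in the same comparison, 14.3% in HDAC1-E63R and 30.9% in HDAC1-Y48E. With 17 libraries those shares were 18.5% and 41.1%, and nothing was tested on a list as a whole.

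Likeness over the 18 libraries was measured as Pearson r of log2 levels among 16677 candidate genes with a mean of at least 1 CPM, as a description of libraries that share 3 lines and 2 treatments. The genes most like Hdac1 were Hoxc11 (0.95), Slc35g1 (0.94) and Igfbp4 (0.94), and Gm10093 had 0.90. Hoxc11 had a mean of 1.18 CPM, just above that limit, beside 41.6 CPM for Slc35g1 and 78.6 CPM for Igfbp4. Those most like Hdac2 had lower values, Gm6793 (0.84), Prdx6 (0.74) and 2410004B18Rik (0.73). Hdac3 was most like Aamp (0.90), Acot7 (0.89) and Ranbp1 (0.89), and Hdac8 most like Ndfip1 (0.91) and Ctu2 (0.90). Without the library that stood apart the values of Hdac2 were 0.79, 0.68 and 0.65, and those of the genes named for the other 3 members lay between 0.86 and 0.95. Among the members themselves Hdac1 had r = 0.70 with Hdac8, 0.15 with Hdac2 and -0.48 with Hdac3, and Hdac2 had 0.01 with Hdac3 and 0.13 with Hdac8. The value for Hdac2 with Hdac3 was -0.28 over 17 libraries.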

How the data were processed

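Total RNA from 18 ESC cultures had been sequenced in 6 groups of 3. The authors deposited raw counts of reads per gene symbol, made, per the labels, with HISAT2 2.1.0, SAMtools 1.9 and HTSeq on mm10; annotation and strand setting are not given in the sources used here. The 5 entries that name no gene held 59.4 to 61.2% of all counts of a library and were left out. Genes were filtered with filterByExpr and scaled with TMM factors, and edgeR 4.0.16 (R 4.3.3) fitted its quasi-likelihood model with the 6 groups as terms to all libraries together, with Benjamini-Hochberg adjustment over 18791 genes in each of 12 comparisons. Positions, exon lengths and sequences came from GENCODE M21 and mm10, copies from BLAST 2.17.0 (minimum identity 95% over 500 bases; Gm4864 was below it), and exact permutation tests from scipy 1.17.1. Procedures were tested on simulated data (seed 1). Members and lists were chosen with earlier results of these data known. Named were the members, their copies, the 3 genes most like each member and list genes called with over 2-fold change with OHT; other list genes were named after their values were seen. Some genes that this rule or the lists cover are not reported here. Alternatives were other scaling factors, no filter, a replicate block, only the libraries compared, DESeq2 1.42.0, an adjusted p limit of 0.05, copies added to Hdac1 (Gm4864 after seeing the data), transcript length and each library left out (for HDAC1-E63R untreated replicate 3 in all comparisons, after seeing the data). Same-numbered replicates did not deviate together (r -0.08 to 0.06), so numbers were not taken as pairs.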

Additional observations from a re-analysis of the deposited data

Results flagged for a closer look

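Differences of OHT effects between lines passed the interaction test (edgeR, adjusted p under 0.01) for 0 class I genes with all 18 libraries (2 in each mutant line against HDAC1-WT at an unadjusted p under 0.05, and 2 each with 17 libraries) and for 9 genes around them, 2 of them copies of Hdac1. The genes looked at were 15 scaffold, 5 HDAC3 complex, 8 cohesin, 3 inositol kinase and 7 other deacetylase genes, with Gm10093 and Gm4864. Of all genes tested, 2.45% were called for HDAC1-E63R minus HDAC1-WT, which gave 1 of the 9, and 12.6% for HDAC1-Y48E minus HDAC1-WT, which gave the other 8. Whether these genes exceeded the share of all genes was not tested. Gm4864 had an OHT effect 1.02 higher on the log2 scale in HDAC1-E63R than in HDAC1-WT (edgeR adjusted p = 0.00723), with all 3 OHT-labelled libraries above the 3 untreated ones in HDAC1-E63R. Gm10093 had an OHT effect 0.79 higher in HDAC1-Y48E than in HDAC1-WT (edgeR adjusted p = 0.00458), with values of -0.42 in HDAC1-WT and 0.37 in HDAC1-Y48E, neither called. The other 7 had lower OHT effects in HDAC1-Y48E than in HDAC1-WT. These were -0.64 for Mta2, -0.83 for Rcor2 and -0.96 for Elmsan1 among the HDAC1/2 scaffolds. Tbl1xr1 of the HDAC3 corepressor complex had -1.13 (edgeR adjusted p = 4.09e-05), Esco2 of the cohesin cycle -0.73, the inositol kinase gene Itpk1 -0.87 and Hdac6, a cytoplasmic deacetylase gene, -1.01. All 9 were called with 17 libraries as well.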

How the results depend on the processing

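The lower Hdac1 of both mutant lines against HDAC1-WT kept its direction and its call in all alternatives run, untreated and after OHT. For the tests on the 4 genes, 355 of 388 values with a library left out and 377 of 432 under other settings kept direction and side of the limit, 15 and 12 changed sign, and the cause was not tested. Replicate block: no member changed its call, and genes called with OHT in HDAC1-WT went from 11 to 6 (Hdac2 in that line -0.66).

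DESeq2 gave Hdac2 with OHT in HDAC1-WT -0.66, Hdac3 untreated E63R against WT 0.50, Hdac1 interactions with HDAC1-WT of 0.45 (E63R) and 0.42 (Y48E), Hdac2 interaction 0.63 (Y48E), Hdac3 after OHT in Y48E 0.018 and Hdac8 interaction 0.035 (Y48E). Relative log expression factors gave 0.50 for Hdac3 untreated in E63R, 0.63 for the Hdac2 interaction, 0.018 for Hdac3 after OHT in Y48E and 0.034 for the Hdac8 interaction. With no filter, Hdac2 with OHT in HDAC1-WT was -0.66 (adjusted p = 1.76e-04), Hdac3 untreated in E63R 0.48, Hdac2 interaction (Y48E) 0.59, and Hdac8 after OHT in E63R -1.35, no longer called (adjusted p = 0.0128). With only the libraries compared, newly called values were Hdac2 -0.66 with OHT in HDAC1-WT, -0.37 untreated in Y48E and 0.32 after OHT in E63R, Hdac3 0.36 untreated in Y48E, 0.38 after OHT in E63R and -0.41 for Y48E against E63R after OHT, and interactions (Y48E) of 0.38 for Hdac1 and 0.58 for Hdac2. Copies added to Hdac1 gave interactions of 0.50 (Y48E), or with Gm4864 too 0.56 (E63R) and 0.51 (Y48E), and an Hdac2 share difference of -4.86 in Y48E.

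Library totals gave, newly called, OHT effects of -0.61 (Hdac2, WT), 0.42 (Hdac1, E63R) and 0.35 (Hdac1, Y48E), Hdac2 -0.38 untreated in Y48E, 0.38 after OHT in E63R and 0.36 in Y48E, Hdac3 0.44 after OHT in E63R, and interactions of 0.62 and 0.54 (Hdac1, E63R and Y48E) and 0.75 (Hdac2, Y48E). Hdac8 after OHT in E63R was -1.29, no longer called. Signs turned for the OHT effects of Hdac2 (0.011 in E63R, 0.14 in Y48E), Hdac3 (0.078) and Hdac8 (0.11) in Y48E, Hdac1 untreated Y48E against E63R (0.014), Hdac3 after OHT in Y48E (0.12) and interactions of Hdac3 (0.064, E63R) and Hdac8 (0.15, Y48E). Untreated HDAC1-WT levels were 57.7 (Hdac1) and 10.9 (Hdac3) CPM per kb, and by longest transcript 100.4, 59.9, 12.6 and 2.72.

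At a limit of 0.05, 10 values are called in addition: Hdac2 -0.66 with OHT in HDAC1-WT, Hdac3 0.48 untreated in E63R, Hdac2 -0.36 and Hdac8 -1.12 untreated in Y48E, Hdac2 0.31 and Hdac3 0.37 after OHT in E63R, Hdac8 -1.12 after OHT in Y48E, and interactions of 0.46 and 0.38 (Hdac1) and 0.59 (Hdac2, Y48E).

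With each library left out, ranges were -0.75 to -0.60 for Hdac2, and -0.26 to 0.23 for Hdac8, with OHT in HDAC1-WT, -0.0142 to 0.34 for Hdac3 in E63R and -0.28 to 0.090 for Hdac8 in Y48E. Against HDAC1-WT they were 0.29 to 0.64 for Hdac3 untreated in E63R, -0.089 to 0.042 for Hdac3 after OHT in Y48E and -1.63 to -1.08 for Hdac8 after OHT in E63R. In Y48E untreated they were -0.45 to -0.31 (Hdac2) and 0.34 to 0.40 (Hdac3), and in E63R after OHT 0.25 to 0.37 (Hdac2) and 0.30 to 0.44 (Hdac3). Y48E against E63R gave -0.28 to 0.078 for Hdac3 untreated, -0.46 to -0.34 for Hdac3 after OHT and -0.0441 to 0.51 for Hdac8 after OHT. Interactions gave 0.39 to 0.51 (Hdac1, E63R), 0.35 to 0.40 (Hdac1, Y48E), 0.36 to 0.59 (Hdac2, E63R), 0.52 to 0.67 (Hdac2, Y48E), -0.27 to 0.084 (Hdac3, E63R), -0.33 to 0.18 (Hdac8, Y48E) and -0.00384 to 0.23 (Hdac2, Y48E minus E63R).

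The number of all genes called also moved by over 1.5 times. With OHT in HDAC1-WT, 11 became 45 at 0.05, 83 with no filter, 73 with DESeq2, 117 with only the libraries compared, 3 to 9 with a library of the line left out and 272 without HDAC1-E63R untreated replicate 3. With OHT in E63R, 2688 became 4727 at 0.05, 453 with only the libraries compared and from 1658 up with a library left out. Against WT, 3170 (E63R untreated) became 5139 at 0.05 and 635 with only the libraries compared, 2285 (Y48E untreated) 3920, 3817 and 4169 without that replicate, and 3631 (E63R after OHT) 5460, 5697 and 5748. Y48E against E63R went from 347 untreated to 797 at 0.05, 682 with DESeq2, 656 with no filter, 47 with only the libraries compared and 214 to 911 with a library left out, and from 1961 after OHT to 3441, 5103 (0.05, only the libraries compared) and 1221 to 3873. The interactions went from 460 (E63R minus WT) to 1086, 866, 851, 165 and 254 to 1273 in the order just given for untreated cells, from 366 (Y48E minus E63R) to 996, 732, 684, 220 and 234 to 1453, and from 2371 (Y48E minus WT) to 4164 at 0.05, 4164 with only the libraries compared and 4505 without HDAC1-E63R untreated replicate 3. Hdac8, at 16 to 95 counts, is limited by depth.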
